A study of Mus musculus with 16 samples.

Results

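Chemokines are small secreted proteins that guide the movement of leukocytes, and the chemokine ligands and receptors measured in mouse colon are described here across genotype and diet. The genes were chosen by name: every gene of the array annotation whose symbol begins with Ccl, Ccr, Cxcl, Cxcr, Cx3cl, Cx3cr, Xcl or Xcr followed by a digit. There were 53 such genes with 69 array features, and 51 genes with 65 features had a value in each of the 8 groups, out of 17995 named genes that passed the same filter. Ccl22 and Cxcr1 did not, with values on 9 and 10 of the 16 arrays. The 51 genes were 19 CC ligands, 13 CXC ligands, 2 ligands of the CX3C and XC kinds (Cx3cl1 and Xcl1) and 17 receptors.

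The tested mice were male Il10-/- mice of the strain B6.129P2-IL10<tm1Cgn>/J, carrying a disrupted gene for interleukin 10, a cytokine that restrains inflammation, and they were set against male C57BL/6J mice. Both genotypes received a mixture of Enterococcus faecalis, E. faecium and complex intestinal flora by oral gavage, were on their diet for 6 weeks, and tissue was taken after 77 days of age. Their age is listed as 5 weeks, with no word on the step it refers to. The diets were EPA (1% corn oil with 3.7% eicosapentaenoic acid, an n-3 polyunsaturated fatty acid), AA (the same with arachidonic acid, an n-6 one), OA (the same with oleic acid, the control fatty acid) and CO (the AIN-76A control diet), each with 5% fat. Every group of genotype and diet had 2 arrays, each of pooled colon RNA from 2 to 3 mice, so the 2 genotypes had 8 arrays each. Mice were not fed freely: the food of all mice was matched to the intake of Il10-/- mice. Values are log ratios, read as base 2 since no base is stated, of the sample to a common reference RNA, made from fetuses, liver, kidney and both parts of the intestine of Swiss mice, so a level of 0 equals the reference and levels of different genes cannot be set against each other. Whether a group's pools came from separate animals is not labelled, and p-values therefore measure the spread between arrays only.

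Chemokine receptors are G protein-coupled receptors on leukocytes, and most of them bind several ligands. In the gut, CXC ligands such as Cxcl1 act on neutrophils through Cxcr2, Cxcl9 to Cxcl11 act on activated T cells through Cxcr3, and CC ligands such as Ccl2 bring monocytes in through Ccr2. Other members, such as Ccl25, Ccl28 and Cxcl14, are made by epithelia without inflammation, and Ccl19, Ccl21 and Cxcl13 organise lymphoid tissue.

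The arrays were of similar depth, with 37005 to 40827 features that had a value. The colon genes Cdx2, Cdx1 and Cdh17 lay above the reference in both genotypes, with Cdx2 at 1.32 ± 0.32 in Il10-/- mice, against 1.27 ± 0.35 in C57BL/6J mice (SD, n = 8 arrays each). Another 7 genes of the list of colon epithelium genes (Cdh1, Epcam, Krt8, Krt18, Krt19, Krt20 and Vil1) stood at the 1 value that 326 to 985 features of an array shared, and so gave no measurement of their own. The feature for Il10 itself read 0.58 ± 0.13 in Il10-/- mice, against -0.17 ± 0.08 in C57BL/6J mice (difference 0.75 ± 0.05, SE, limma adjusted p = 2.11e-06), and since its position relative to the disrupted part of the gene is unknown, it does not check the genotype. C57BL/6J CO pool 2 stood apart, with a median correlation of 0.816 to the other arrays of its genotype, against 0.9045 or more for each of the other 15 arrays. Il10-/- OA pool 1 is titled OA but carries EPA in its source name, and was kept as OA. Some small intestine genes, such as Apoa1, were far higher on C57BL/6J EPA pool 1 and AA pool 1 than on the other 14 arrays. Others were not, and the pair is called high in small intestine genes below for the former only. Values without these arrays, or with the other label, stand beside many of the results that rest on them.

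Chemokine genes were higher in the Il10-/- colon over a broad front. Averaged over the 4 diets, 26 of 51 rose and 0 fell, where a change means a Benjamini-Hochberg adjusted p under 0.05 over all 25892 tests of the limma fit. Of everything tested, 17.3% changed in either direction and 9.14% rose. The median difference of the 51 genes was 0.26, and that of all tests was -0.01. In 15 of the 51 genes the 8 Il10-/- arrays all lay above the 8 C57BL/6J arrays (fewer arrays where values were missing), which held for 2.83% of everything tested. By class, 9 of 13 CXC ligands (median difference 0.52), 10 of 19 CC ligands (0.27), 0 of 2 CX3C and XC ligands (0.03) and 7 of 17 receptors (0.08) rose. At an unadjusted p under 0.05 the count was 29 of 51 (28.2% of everything tested), 28 of them higher, and the lower one was Ccl25. The count past the adjusted threshold was 27 without C57BL/6J EPA pool 1 and AA pool 1, 25 without C57BL/6J CO pool 2, where Cxcl3 could not be fitted, and 25 with Il10-/- OA pool 1 counted as EPA.

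**Figure D1:**
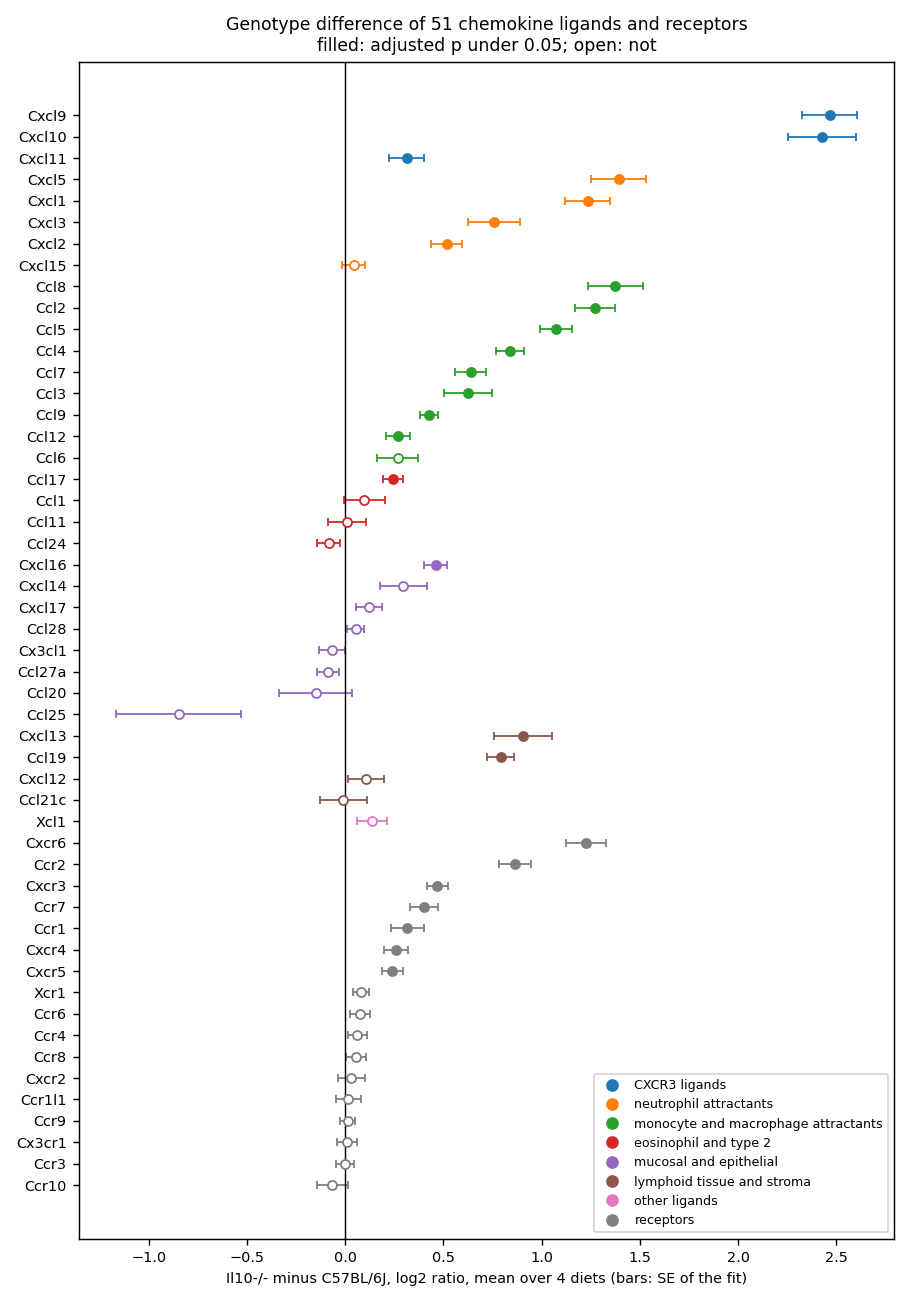
Difference between Il10-/- and C57BL/6J arrays averaged over the 4 diets for each of the 51 chemokine ligands and receptors (log2 ratio on the x axis, bars are the SE of the fit, colours give the role of the gene, filled points passed an adjusted p of 0.05). Cxcl9 and Cxcl10 lie near 2.4 and all 26 filled points lie right of 0, while Ccl25 lies farthest to the left, at -0.85 and open.

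The ligands of Cxcr3, which draw activated T cells and natural killer cells and are induced by interferon gamma, held both the largest and one of the smaller changes. Cxcl9 read 0.98 at the lowest, 1.88 at the median and 2.27 at the highest of the 8 Il10-/- arrays, against -1.02, -0.78 and -0.23 on the C57BL/6J arrays. Cxcl10 read 0.11, 1.12 and 1.46 on the Il10-/- arrays, against -1.72, -1.40 and -1.08 on the C57BL/6J arrays. In both genes each Il10-/- array was above each C57BL/6J array, by 1.21 for Cxcl9 and 1.19 for Cxcl10 at the closest pair, and the lowest Il10-/- reading of both came from EPA pool 1. The difference was 2.47 ± 0.14 for Cxcl9 (SE, adjusted p = 3.85e-07, 95% interval 2.16 to 2.77), a ratio of 5.53 on the linear scale if the base is 2. It was 2.43 ± 0.17 for Cxcl10 (adjusted p = 1.76e-06), a ratio of 5.38. Cxcl11, the third ligand of the receptor, differed by 0.31 ± 0.09 (adjusted p = 0.0273), and its arrays overlapped: -0.72 to -0.28 in Il10-/- mice, against -1.09 to -0.63 in C57BL/6J mice. The call of Cxcl11 was lost without any 1 of 7 arrays, with adjusted p up to 0.0734. The receptor rose as well: Cxcr3 had a median of 0.40 in Il10-/- mice, against -0.07 in C57BL/6J mice, a difference of 0.47 ± 0.06 (adjusted p = 9e-05) without overlap.

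Ligands that attract neutrophils through Cxcr2 rose in 4 of 5 cases, and the receptor did not pass the test. Cxcl5, which epithelial cells secrete, read 0.91 at the lowest, 1.57 at the median and 2.44 at the highest of 8 Il10-/- arrays, against 0.00, 0.08 and 0.45 over the 6 C57BL/6J arrays that had a value. No array of 1 genotype reached the other, and the difference was 1.39 ± 0.14 (adjusted p = 7.09e-05). Cxcl1, the main neutrophil attractant of mouse tissue, had a median of 0.63 (0.33 to 0.71) in Il10-/- mice, against -0.79 (-0.98 to -0.11) in C57BL/6J mice. It kept a tight range on the Il10-/- arrays, and its difference was 1.23 ± 0.11 (adjusted p = 1.36e-05). Cxcl2, a relative made by macrophages, rose by 0.52 ± 0.08 (adjusted p = 6.53e-04) and Cxcl3 by 0.76 ± 0.13 (adjusted p = 0.00363), where Cxcl3 had a value on 5 of 8 C57BL/6J arrays. Both overlapped between genotypes: both Il10-/- AA arrays for Cxcl2, and 1 of them for Cxcl3, were below the highest C57BL/6J array. Cxcl15, which is known from lung, had a difference of 0.04 ± 0.06 (adjusted p = 0.688). The receptor Cxcr2 had a median of 0.03 on 7 Il10-/- arrays and 0.04 on 8 C57BL/6J arrays, with a difference whose 95% interval ran from -0.12 to 0.18.

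The neutrophil attractant genes lie close together in the mouse genome. Promoters that held a motif are shown for some of them and for Cxcl10, a ligand of Cxcr3. Cxcl5, the neutrophil attractant with the largest difference, had no match among the windows searched and is not shown. On chromosome 5 the measured CXC ligands stand in the order Cxcl5, Cxcl3, Cxcl15, Cxcl1, Cxcl2, Cxcl9, Cxcl10, Cxcl11 and Cxcl13. Of these 9, 8 rose (median difference 0.90). They do not form 1 block. Cxcl5 to Cxcl2 begin at bases 90759298 to 90903899, Cxcl9 to Cxcl11 at 92321331 to 92359544, and Cxcl13 at 95956939. The windows below run from 250 bases before to 50 bases after the RefSeq gene start in build GRCm38.p6, 5′ to 3′ on the strand of the gene, with capitals at matches to a motif. Cxcl1 is at chr5:90890995-90891294, plus strand, Cxcl2 at chr5:90903649-90903948, plus strand, Cxcl3 at chr5:90785851-90786150, plus strand and Cxcl10 at chr5:92348840-92349139, minus strand.
Cxcl1: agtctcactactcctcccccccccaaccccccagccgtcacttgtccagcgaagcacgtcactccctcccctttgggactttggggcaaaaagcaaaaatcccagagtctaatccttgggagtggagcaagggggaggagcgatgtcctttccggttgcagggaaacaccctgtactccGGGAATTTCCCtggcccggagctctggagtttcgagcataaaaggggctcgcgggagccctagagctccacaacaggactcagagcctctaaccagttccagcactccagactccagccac
Cxcl2: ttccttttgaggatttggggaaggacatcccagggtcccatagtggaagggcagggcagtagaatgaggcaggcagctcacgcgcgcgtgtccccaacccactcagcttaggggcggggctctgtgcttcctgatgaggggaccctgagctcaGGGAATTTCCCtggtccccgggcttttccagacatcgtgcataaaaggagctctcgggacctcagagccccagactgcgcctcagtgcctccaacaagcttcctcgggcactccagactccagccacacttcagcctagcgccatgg
Cxcl3: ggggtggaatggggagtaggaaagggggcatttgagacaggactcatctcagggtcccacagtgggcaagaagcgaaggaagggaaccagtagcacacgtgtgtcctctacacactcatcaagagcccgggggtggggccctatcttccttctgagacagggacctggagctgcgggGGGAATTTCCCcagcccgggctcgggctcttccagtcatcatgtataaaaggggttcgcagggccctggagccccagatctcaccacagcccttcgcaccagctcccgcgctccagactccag
Cxcl10: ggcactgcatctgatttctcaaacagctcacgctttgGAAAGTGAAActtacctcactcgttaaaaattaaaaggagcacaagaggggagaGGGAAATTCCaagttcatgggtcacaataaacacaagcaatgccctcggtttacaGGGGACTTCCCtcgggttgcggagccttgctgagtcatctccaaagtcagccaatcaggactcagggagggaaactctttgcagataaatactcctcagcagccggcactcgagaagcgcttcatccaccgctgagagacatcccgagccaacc
The capitals mark the consensus of the transcription factor NF-kB, which overlaps itself on both strands in Cxcl1, Cxcl2 and Cxcl3 and begins at -71, -97 and -73 relative to the gene start. In Cxcl10 the first capitals mark the interferon-stimulated response element (GAAA, any 2 bases, then GAAA, or its reverse complement) at -213, and the later ones NF-kB at -159 and -104. Both strands were searched in each window. The RefSeq table held 41 promoters for 37 of the chemokine genes. Of these 41 promoters, 11 held the NF-kB motif, 3 the interferon element and 4 the GAS element (TTCNNNGAA). The shares over all 32851 promoters were 8.46%, 3.44% and 8.3%. Among the 17 risen genes with a promoter, 6 held NF-kB, 2 the interferon element (Cxcl10 and Ccl19) and 1 the GAS element (Ccl17). A match describes these letters only.

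Ligands that attract monocytes, macrophages and T cells formed the broadest group, with 8 of 9 risen and a median difference of 0.64. Ccl2, the main ligand of Ccr2 on monocytes, read 0.77, 1.25 and 1.53 at the lowest, median and highest Il10-/- array, against -0.35, -0.12 and 0.51 in C57BL/6J mice. Ccl8, a relative of it, read 1.24, 1.62 and 2.00 in Il10-/- mice, against -0.52, 0.11 and 1.06 in C57BL/6J mice. The arrays of both genes separated by genotype, though the C57BL/6J arrays of the EPA and AA diets came closest to the Il10-/- ones. The differences were 1.27 ± 0.10 for Ccl2 (adjusted p = 3.87e-06) and 1.37 ± 0.14 for Ccl8 (adjusted p = 2.6e-05). Ccl5, which acts on T cells, monocytes and eosinophils, had a median of 1.04 (0.84 to 1.33) in Il10-/- mice, against 0.00 (-0.35 to 0.24) in C57BL/6J mice, a difference of 1.07 ± 0.08 (adjusted p = 2.68e-06). The macrophage products Ccl4 and Ccl3 rose by 0.84 ± 0.07 and 0.62 ± 0.12, and the monocyte attractants Ccl7 and Ccl12 by 0.64 ± 0.08 and 0.27 ± 0.06. Ccl9, a mouse ligand of Ccr1, rose by 0.43 ± 0.05. Ccl6 differed by 0.27 ± 0.10 and did not pass (adjusted p = 0.107). The CC ligands on chromosome 11 rose in 8 of 11 cases (median difference 0.62), with Ccl11, Ccl1 and Ccl6 as the exceptions. They too lie in separate groups, Ccl2 to Ccl1 apart from Ccl5 to Ccl4.

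**Figure D2:**
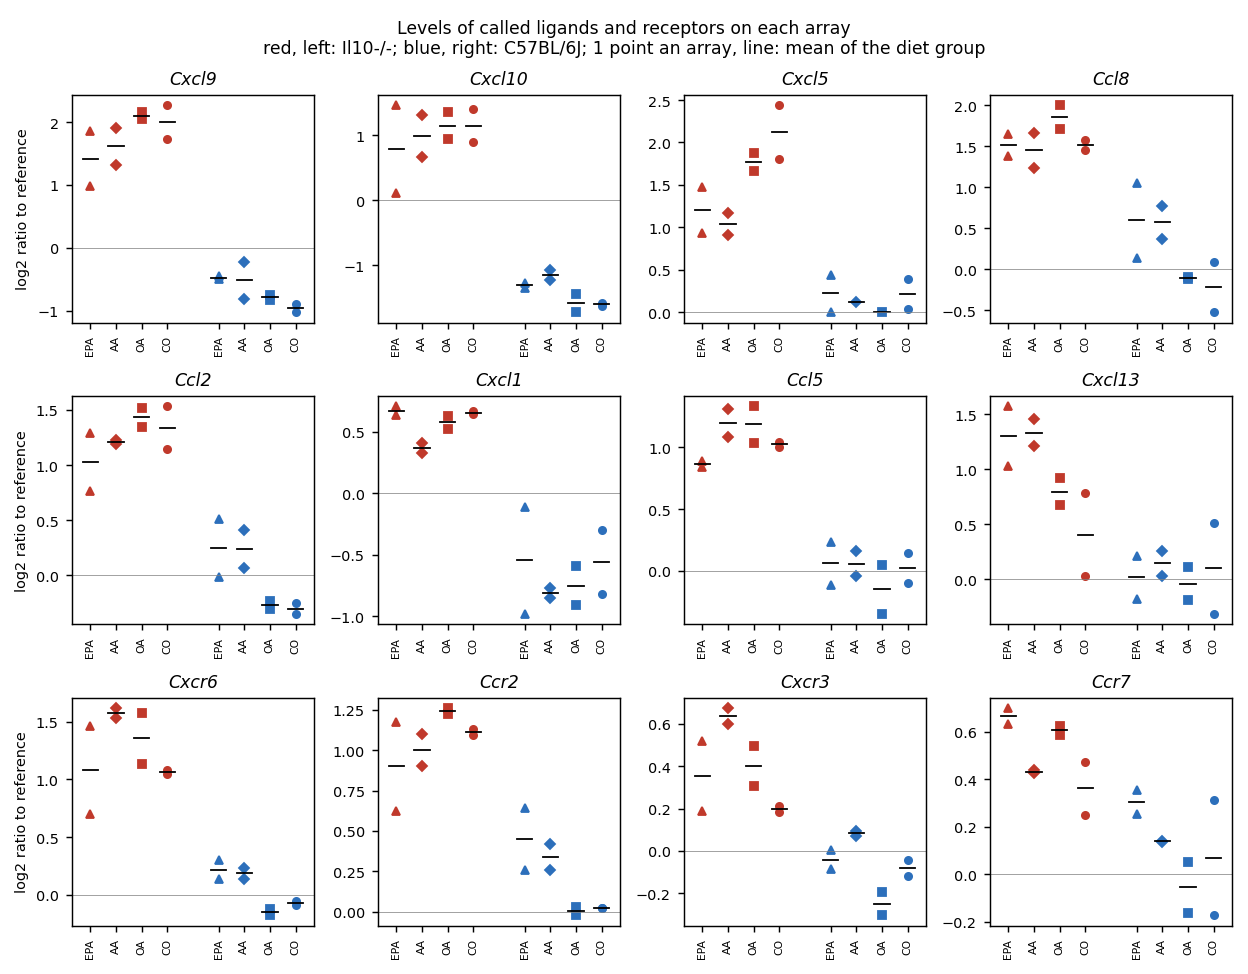
Level of 12 chemokine ligands and receptors that rose, on each array (log2 ratio to the reference on the y axis, 1 point an array, Il10-/- in red at left and C57BL/6J in blue at right, diets on the x axis, lines are means of 2 arrays or fewer). The genotypes separate in Cxcl9 and Cxcl10, while the C57BL/6J levels of Ccl8, Ccl2 and Ccr2 on the EPA and AA diets stand above those on the OA and CO diets.

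Ligands of lymphoid tissue and stroma were mixed, with 2 of 4 risen. Ccl19, which guides T cells and dendritic cells through Ccr7, had a median of -0.22 (-0.40 to -0.02) in Il10-/- mice, against -0.99 (-1.21 to -0.63) in C57BL/6J mice, a difference of 0.79 ± 0.07 (adjusted p = 8.44e-06). Its 2 features differed in size, with differences of 0.44 and 1.14. Cxcl13, which draws B cells through Cxcr5, rose by 0.90 ± 0.15 (adjusted p = 0.00101), but its Il10-/- arrays ran from 0.03 to 1.57 and overlapped the C57BL/6J arrays, which ran from -0.31 to 0.51. Ccl21c, another ligand of Ccr7 whose near-identical copies the probe may also read, differed by -0.01 ± 0.12 (95% interval -0.27 to 0.25). Cxcl12, the stromal ligand of Cxcr4, had an averaged difference of 0.11 ± 0.09 (adjusted p = 0.508), but its 2 features moved in opposite directions. Tested singly, 1 feature was higher in Il10-/- mice by 0.57 ± 0.11 (adjusted p = 0.00248) and the other differed by -0.36 ± 0.09 (adjusted p = 0.0185), so no direction is given for the gene.

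Ligands of mucosal epithelium and of type 2 responses mostly did not pass the test. Among 8 mucosal and epithelial ligands 1 rose, Cxcl16, a transmembrane ligand of Cxcr6, by 0.46 ± 0.06 (adjusted p = 1.52e-04), with Il10-/- arrays at 0.30 to 0.62 and C57BL/6J arrays at -0.09 to 0.22. The median difference of the 8 was -0.01. Ccl20, which draws cells with Ccr6, differed by -0.15 ± 0.18 (adjusted p = 0.656). The difference of Ccl20 was 0.00 without the pair of C57BL/6J arrays high in small intestine genes. Of that pair only AA pool 1 was high in Ccl20, at 1.83, and EPA pool 1 read -0.14, the lowest C57BL/6J array. Ccl28 differed by 0.05 ± 0.04, Ccl27a by -0.09 ± 0.06 and Cxcl17 by 0.12 ± 0.07, none past the threshold. Cxcl14 differed by 0.30 ± 0.12 (adjusted p = 0.123) and passed in 4 alternatives, among them quantile normalization (0.51, adjusted p = 0.00632), the pool number as a block (0.30, adjusted p = 0.00956) and the fit without C57BL/6J EPA pool 1 and AA pool 1 (0.41, adjusted p = 0.0463). Among the 4 ligands of eosinophil and type 2 responses Ccl17, a ligand of Ccr4, rose by 0.24 ± 0.05 (adjusted p = 0.00555), but did not pass when Il10-/- OA pool 1 was counted as EPA (adjusted p = 0.0673). The eosinophil attractant Ccl11 differed by 0.01 ± 0.10 (95% interval -0.20 to 0.22) and its relative Ccl24 by -0.08 ± 0.06 (-0.21 to 0.04).

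Ccl25, the ligand of the small intestine homing receptor Ccr9, had the most negative difference of the 51 genes. It read -3.01, -2.06 and -1.35 at the lowest, median and highest Il10-/- array, against -2.13, -1.52 and 0.27 in C57BL/6J mice. The C57BL/6J spread came from EPA pool 1 at 0.27 and AA pool 1 at 0.26, while the other 6 C57BL/6J arrays lay between -2.13 and -1.36 and overlapped the Il10-/- arrays. On the same pair of arrays the apolipoprotein gene Apoa1 read 0.00 and -0.15, against -4.13 to -2.52 on the other 14 arrays. The bile acid binding protein gene Fabp6, expressed in the ileum, read 2.17 and 1.80 there, against -1.52 to 0.79 elsewhere. Of 10 genes of the small intestine, chosen after Ccl25 was seen, 4 were above all other arrays on both (Apoa1, Apob, Fabp6 and Mttp). So was Sis, which stood at the shared value on AA pool 1. Apoa4, Fabp1, Fabp2, Lct and Rbp2 were not. Lct read -3.82 and -4.08 on the pair, against -4.71 to -3.50 elsewhere, and Fabp2 stood at the shared value on 8 arrays. The difference of Ccl25 was -0.85 ± 0.32 (adjusted p = 0.093), and it was -0.41 (adjusted p = 0.318) without this pair of arrays. On both, 1 of its 2 features stood at the shared value of the array, and the part of small intestine RNA in the result was not tested. Ccr9 differed by 0.01 ± 0.04 (95% interval -0.07 to 0.10).

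Receptors rose in 7 of 17 cases, led by receptors of T cells and monocytes. Cxcr6, the receptor of Cxcl16 on T cells of tissues, read 0.70, 1.30 and 1.62 at the lowest, median and highest Il10-/- array, against -0.18, 0.04 and 0.30 in C57BL/6J mice. The genotypes did not overlap, and the difference was 1.23 ± 0.10 (adjusted p = 4.66e-06). Ccr2, the monocyte receptor of Ccl2, had a median of 1.11 (0.63 to 1.26) in Il10-/- mice, against 0.14 (-0.02 to 0.64) in C57BL/6J mice, a difference of 0.86 ± 0.08 (adjusted p = 1.5e-05). Its ranges overlapped by 1 array each, both of the EPA diet (0.63 on Il10-/- pool 1, against 0.64 on C57BL/6J pool 2), and its 2 features differed in size (0.52 and 1.21). Ccr7, which takes dendritic cells and T cells to lymph nodes, rose by 0.40 ± 0.07 (adjusted p = 0.00156). Cxcr5, the B cell receptor of Cxcl13, rose by 0.24 ± 0.05 (adjusted p = 0.00816), and Cxcr4, the receptor of Cxcl12, by 0.26 ± 0.06 (adjusted p = 0.0107), with 1 of the 2 Cxcr4 features passing by itself. Ccr1 rose by 0.32 ± 0.08 (adjusted p = 0.0239), with values on 7 arrays of each genotype, and lost its call in 6 alternatives with adjusted p up to 0.0594, the highest without C57BL/6J EPA pool 1 and AA pool 1.

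The remaining 10 receptors were Ccr3, Ccr4, Ccr6, Ccr8, Ccr9, Ccr10, Ccr1l1, Cx3cr1, Cxcr2 and Xcr1, with differences from -0.07 to 0.08. Among them the eosinophil receptor Ccr3 differed by 0.00 ± 0.05 and Cx3cr1, the receptor of Cx3cl1 on resident macrophages, by 0.01 ± 0.05 (95% interval -0.10 to 0.12). Cx3cl1 itself differed by -0.07 ± 0.07, and Xcl1, a ligand made by killer cells, by 0.13 ± 0.08, with Xcr1, its receptor on dendritic cells, at 0.08 ± 0.04. The 11 receptor genes on chromosome 9, which include Cxcr6 and Ccr2, had a median difference of 0.06 and 4 that rose. The median SD of the 51 genes among arrays of 1 genotype was 0.16 in Il10-/- mice, against 0.17 in C57BL/6J mice. Over all tests it was 0.11 in Il10-/- mice, against 0.14 in C57BL/6J mice. The SD was larger in Il10-/- mice for 26 of the 51 genes, and for 8404 of all 25892 tests.

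Genes that act around the chemokines moved too. Of 8 cytokines and factors around the induction of chemokine genes, 7 rose and 0 fell. Among them were Il1b at 2.65 ± 0.17, Tnf at 1.51 ± 0.07 and Ifng at 1.28 ± 0.08 (adjusted p = 8.35e-07, 1.09e-07 and 7.75e-07). The 7 also include Nfkbia, at 0.59 ± 0.08, which encodes an inhibitor of NF-kB and not an inducer. Of 11 adhesion molecules and integrins, many of which hold leukocytes on the vessel wall after chemokine signals, 7 rose. Among them were Icam1 at 0.98 ± 0.08, Itgb7 at 0.92 ± 0.08 and Vcam1 at 0.74 ± 0.06, while Itga4, Itgam, Madcam1 and Selp did not pass. Of 28 genes listed for receptor signalling, most of which act inside the cell, 11 rose and 2 fell. The 11 include Fpr2, itself a receptor of the cell surface, at 0.47 ± 0.09. Rac2, a GTPase of leukocytes, rose by 0.57 ± 0.07 and Vav1 by 0.41 ± 0.06, while the arrestin Arrb1 fell by 0.24 and the G protein regulator Rgs1 by 0.31. Of 10 atypical receptors and related genes 2 rose, Ccrl2 by 0.32 ± 0.07 and the scavenging receptor Ackr2 by 0.26 ± 0.05, and 1 fell, the platelet chemokine gene Pf4 by 0.63 ± 0.11 (adjusted p = 0.00159). These counts stand beside the background of 17.3% given above.

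Several lists of leukocyte markers moved with the chemokines, beside a background of 9.14% that rose and 8.12% that fell. Of 10 macrophage and monocyte markers 8 rose, and the mean of the list lay between 0.519 and 0.874 on Il10-/- arrays and between -0.18 and 0.229 on C57BL/6J arrays. Of 10 neutrophil markers 6 rose, with list means of 0.159 to 0.837 in Il10-/- mice, against -0.62 to -0.193 in C57BL/6J mice. The counts were 4 of 7 for T cells, 5 of 7 for type 1 and killer cells, 1 of 6 for B cells, 3 of 5 for plasma cells, 2 of 5 for dendritic cells and 1 of 4 for eosinophils, with 0 that fell in each. The macrophage marker Ly6c2 stood at the shared value on 10 arrays. Lower in Il10-/- mice were 5 of 7 smooth muscle genes (the other two, Actg2 and Cnn1, stood at the shared value on 13 and 11 arrays), 5 of 5 adipocyte genes (median difference -0.92), 3 of 6 endothelium genes, 1 of 6 fibroblast genes and 1 of 5 mast cell genes, with 0 that rose, and 0 of 4 lymphatic endothelium genes changed. Counts of 1 in a list are near the background. In whole colon, more RNA per cell and more cells of a type cannot be told apart, and the part of these cell markers in the chemokine differences was not tested.

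The genotype difference was present on each diet, with counts that differed between diets. On EPA 9 of 51 genes rose (1.19% of everything tested), on AA 8 (0.896%), on OA 16 (2.92%) and on CO 15 (5.09%), and 0 fell on any diet. Cxcl9, Cxcl10, Cxcl1, Ccl5 and Ccl19 rose on all 4 diets, and Ccl2, Ccl4 and Cxcr6 on 3 of them. Another 8 genes rose on 2 diets and 3 on 1, and 32 on 0. The difference of Cxcl9 was 1.89 ± 0.28 on EPA, 2.13 ± 0.28 on AA, 2.89 ± 0.28 on OA and 2.96 ± 0.28 on CO. Cxcl1 was nearly level across diets, at 1.22 ± 0.23, 1.18 ± 0.23, 1.33 ± 0.23 and 1.22 ± 0.23 in that order. All 4 counts depend on the fit or on single arrays. On CO the count was 5 with only the groups compared in the fit and 8 with array weights, on OA 24 with array weights, and on EPA 2 with only the groups compared. On EPA it was 3 without C57BL/6J pool 1 and 5 without Il10-/- pool 2. On AA it was 1 without pool 1 of either genotype and 4 without pool 2 of either. Without both C57BL/6J arrays high in small intestine genes 1 gene rose on EPA and 1 on AA, with 1 array left in each of those groups.

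**Figure D3:**
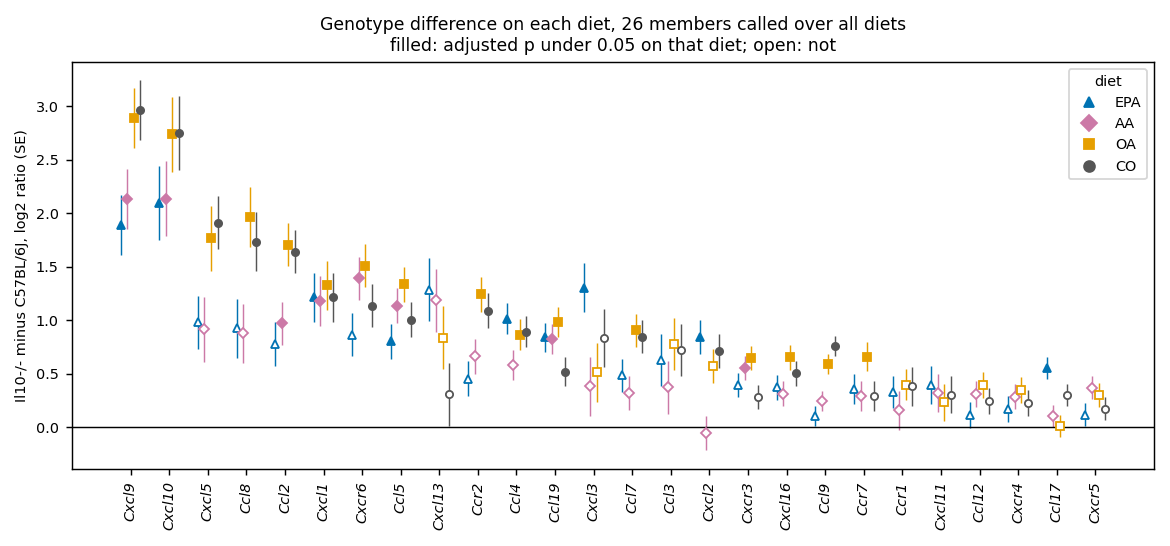
Difference between Il10-/- and C57BL/6J mice on each diet for the 26 chemokine genes that rose over all diets (log2 ratio on the y axis, bars are the SE of the fit, marker and colour give the diet, filled points passed an adjusted p of 0.05 on that diet). In Cxcl9, Cxcl10, Cxcl5, Ccl8, Ccl2 and Ccr2 the EPA and AA points lie below the OA and CO points, and in Cxcl13 above them.

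No chemokine gene passed the test for a genotype difference that depends on diet. In the test of any interaction 0 of 51 passed (background 0.0%), the smallest adjusted p being those of Ccl9 (0.358), Cxcl2 (0.554) and Ccl17 (0.616), and 9 had an unadjusted p under 0.05 (background 6.67%). In the narrower test of whether EPA and AA against OA and CO acted differently in the genotypes 0 passed (background 0.0%), and 10 had an unadjusted p under 0.05 (8.5%), with 8 of the 10 more negative in Il10-/- mice. The smallest p-values belonged to Ccl9 (-0.50 ± 0.09, adjusted p = 0.109), Ccl2 (-0.80 ± 0.20, adjusted p = 0.233) and Ccr2 (-0.61 ± 0.16, adjusted p = 0.266). Without C57BL/6J CO pool 1, Ccl9 passed (-0.51, adjusted p = 0.048), and Ccl19 passed in the interaction (adjusted p = 0.0491). The CO diet of C57BL/6J mice is then CO pool 2 alone, the array that stood apart, and without that array instead Ccl9 did not pass (-0.49, adjusted p = 0.0899).

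In C57BL/6J mice, levels of Ccl9, Ccl11, Ccl8, Ccl2 and Ccr2 lay higher on the polyunsaturated diets without passing the test. For EPA and AA together against OA and CO, 0 of 51 passed (background 0.0193%) and 10 had an unadjusted p under 0.05, all higher on EPA and AA (background 7.75%). Of the 4 EPA and AA arrays 2 are those high in small intestine genes, and among the 10 genes Ccl25 differed by 1.25, but by 0.36 without them. Ccl9 read 0.10 and 0.29 on EPA and 0.26 and 0.14 on AA, against -0.13 and -0.18 on OA and -0.29 and -0.32 on CO. Each of the 4 EPA and AA arrays was above each OA and CO array, and the difference was 0.43 ± 0.07 (adjusted p = 0.0664). Ccl11 read 0.72 and 0.78 on EPA and 0.97 and 0.79 on AA, against 0.46 and 0.12 on OA and -0.09 and 0.12 on CO, again with no overlap (0.66 ± 0.14, adjusted p = 0.195). Ccl8 differed by 0.75 ± 0.20 (adjusted p = 0.328), with all EPA and AA arrays above all OA and CO arrays. Ccl2 and Ccr2 did so too, with differences of 0.53 ± 0.14 and 0.38 ± 0.12. How much of everything tested separates by diet in this way was not counted. Without the 2 arrays high in small intestine genes the differences were 0.45 for Ccl9 (adjusted p = 0.305), 0.63 for Ccl11, 1.08 for Ccl8, 0.58 for Ccl2 and 0.52 for Ccr2. Ccl9 passed without C57BL/6J CO pool 1 (adjusted p = 0.0331) and without AA pool 2 (adjusted p = 0.0435). Ccr7, at 0.22 with all arrays, passed without CO pool 1 too (0.34, adjusted p = 0.0494), where CO pool 2 is the only CO array left, and was 0.09 without CO pool 2. The other C57BL/6J diet contrasts use the same arrays and are not independent of this one.

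In Il10-/- mice the smallest p-values of the polyunsaturated diets belonged to Cxcl5, Ccl17 and Cxcl13, also without a call. For EPA and AA against OA and CO, 0 of 51 passed (background 0.0811%), and 4 had an unadjusted p under 0.05 with higher and 3 with lower levels (background 9.01%). Cxcl5 read 0.93 and 1.47 on EPA and 1.16 and 0.91 on AA, against 1.67 and 1.87 on OA and 1.81 and 2.44 on CO. All EPA and AA arrays were below all OA and CO arrays, and the difference was -0.83 ± 0.18 (adjusted p = 0.149). Cxcl13 read 1.03 and 1.57 on EPA and 1.46 and 1.21 on AA, against 0.92 and 0.67 on OA and 0.79 and 0.03 on CO (0.72 ± 0.21, adjusted p = 0.286). Ccl17 read 0.41 and 0.60 on EPA and 0.32 and 0.31 on AA, against 0.11 on both OA pools and 0.12 and 0.21 on CO (0.27 ± 0.07, adjusted p = 0.238). These 2 ligands were higher on every EPA and AA array than on any OA or CO array. For these and for Cxcl5, the share of everything tested that separates by diet was not counted. With Il10-/- OA pool 1 counted as EPA, as its source name has it, Ccl17 no longer separated by diet, and the differences were 0.21 for Ccl17, 0.71 for Cxcl13 and -0.80 for Cxcl5 (adjusted p = 0.998 for each).

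**Figure D4:**
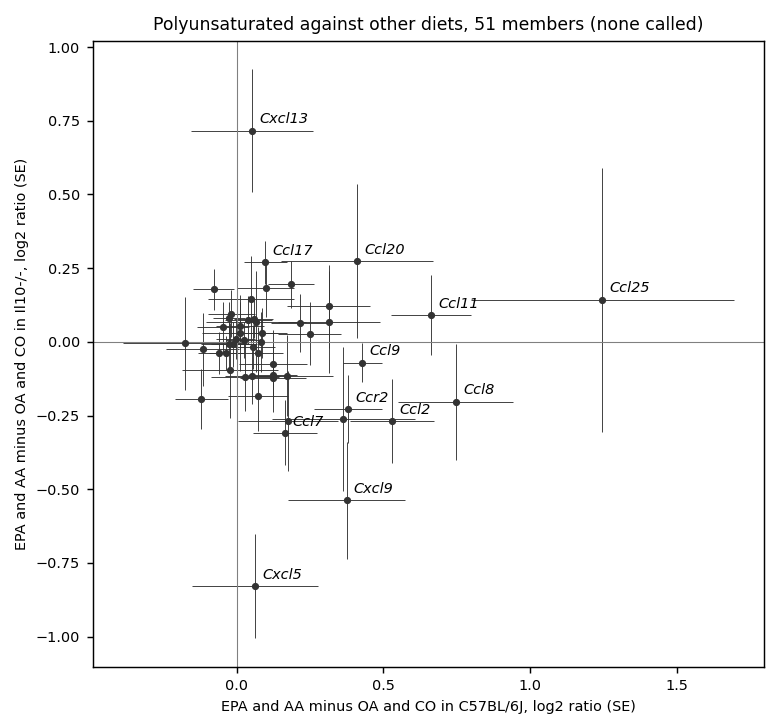
Effect of the EPA and AA diets against the OA and CO diets in Il10-/- mice (y axis) and in C57BL/6J mice (x axis) for the 51 chemokine genes (log2 ratio, bars are the SE of the fit). No point passed an adjusted p of 0.05 in either genotype. Cxcl5 lies lowest at -0.83 and Cxcl13 highest at 0.72 in Il10-/- mice, and Ccl8, Ccl11 and Ccl9 lie to the right, at 0.75, 0.66 and 0.43 in C57BL/6J mice.

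Between the n-3 and n-6 diets, the smallest p-values in Il10-/- mice belonged to Cxcl2, Cxcl3 and Ccl4. For EPA against AA in Il10-/- mice 0 of 51 passed (background 0.0%), and 6 had an unadjusted p under 0.05 (background 3.39%). Cxcl2 read 1.16 and 0.88 on EPA, against 0.15 and 0.24 on AA, a difference of 0.83 ± 0.16 (adjusted p = 0.615). Cxcl3 read 1.65 and 1.28 on EPA, against 0.54 and 0.33 on AA (1.03 ± 0.22, adjusted p = 1). Ccl4 read 1.00 and 0.97 on EPA, against 0.37 and 0.40 on AA (0.60 ± 0.14, adjusted p = 1). The arrays of all 3 genes separated by diet, but with only 2 arrays a diet. The share of everything tested that separates in this way was not counted. In C57BL/6J mice 0 of 51 passed (background 0.0%) and 2 had an unadjusted p under 0.05 (background 3.09%). The smallest p-values were those of Ccl20 (-0.97 ± 0.37), Ccl17 (-0.26 ± 0.10) and Ccr9 (0.14 ± 0.08). The difference of Ccl20 was 0.03 without the pair of arrays high in small intestine genes, of which only AA pool 1 was high in Ccl20.

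Set against the control fatty acid, neither polyunsaturated diet gave a call in these fits with all arrays. For EPA against OA in Il10-/- mice 0 of 51 passed (background 0.0%), 7 had an unadjusted p under 0.05 (background 4.27%), and the smallest p-values were those of Ccl17 (0.39 ± 0.10), Cxcl2 (0.45 ± 0.16) and Ccl7 (-0.41 ± 0.16). With Il10-/- OA pool 1 counted as EPA these were 0.26, 0.60 and -0.23. For AA against OA in Il10-/- mice 0 passed (background 0.00386%), 3 had an unadjusted p under 0.05 (7.15%), and all 3 were lower on AA: Cxcl5 (-0.73 ± 0.25), Cxcl2 (-0.38 ± 0.16) and Ccl7 (-0.37 ± 0.16). Counted the other way, they were -0.84, -0.15 and -0.34. In C57BL/6J mice 0 passed for EPA against OA (background 0.0%) and 6 had an unadjusted p under 0.05 (5.94%), where Ccl9 (0.35 ± 0.09), Ccr2 (0.44 ± 0.16) and Ccr7 (0.36 ± 0.14) led. There 0 passed for AA against OA too (background 0.0%) and 5 had an unadjusted p under 0.05 (3.34%), with Ccl9 (0.35 ± 0.09), Ccl11 (0.59 ± 0.19) and Cxcr3 (0.33 ± 0.11) in front. These comparisons share the OA arrays of their genotype.

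The oleic acid diet gave no call against the control diet. For OA against CO in Il10-/- mice 0 of 51 passed (background 0.0%) and 0 had an unadjusted p under 0.05 (1.5%), with Cxcl17 (-0.29 ± 0.13), Cxcl2 (-0.32 ± 0.16) and Cxcr5 (0.21 ± 0.11) in front. With Il10-/- OA pool 1 counted as EPA they were -0.41, -0.55 and 0.09. In C57BL/6J mice 0 passed (background 0.0154%) and 3 had an unadjusted p under 0.05 (11.2%): Cx3cl1 (-0.35 ± 0.14), Ccl17 (0.23 ± 0.10) and Ccl19 (-0.31 ± 0.14). Without C57BL/6J CO pool 1, Ccl19 (-0.58, adjusted p = 0.00631) and Cx3cl1 (-0.53, adjusted p = 0.0403) passed, with CO pool 2, the array that stood apart, as the only CO array. Without CO pool 2 instead they differed by -0.04 (adjusted p = 0.934) and -0.17 (adjusted p = 0.727). With any diet difference as the question, 0 of 51 passed in Il10-/- mice (background 0.00386%) and 0 in C57BL/6J mice (0.00772%), and an unadjusted p under 0.05 was found for 8 genes in Il10-/- mice (4.85%), and for 6 genes in C57BL/6J mice (8.04%). The smallest p-values were those of Cxcl2, Cxcl5 and Cxcl3 in Il10-/- mice (adjusted p = 0.459, 0.619 and 0.738), and of Ccl9, Ccl11 and Ccl8 in C57BL/6J mice (adjusted p = 0.187, 0.32 and 0.497).

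**Figure D5:**
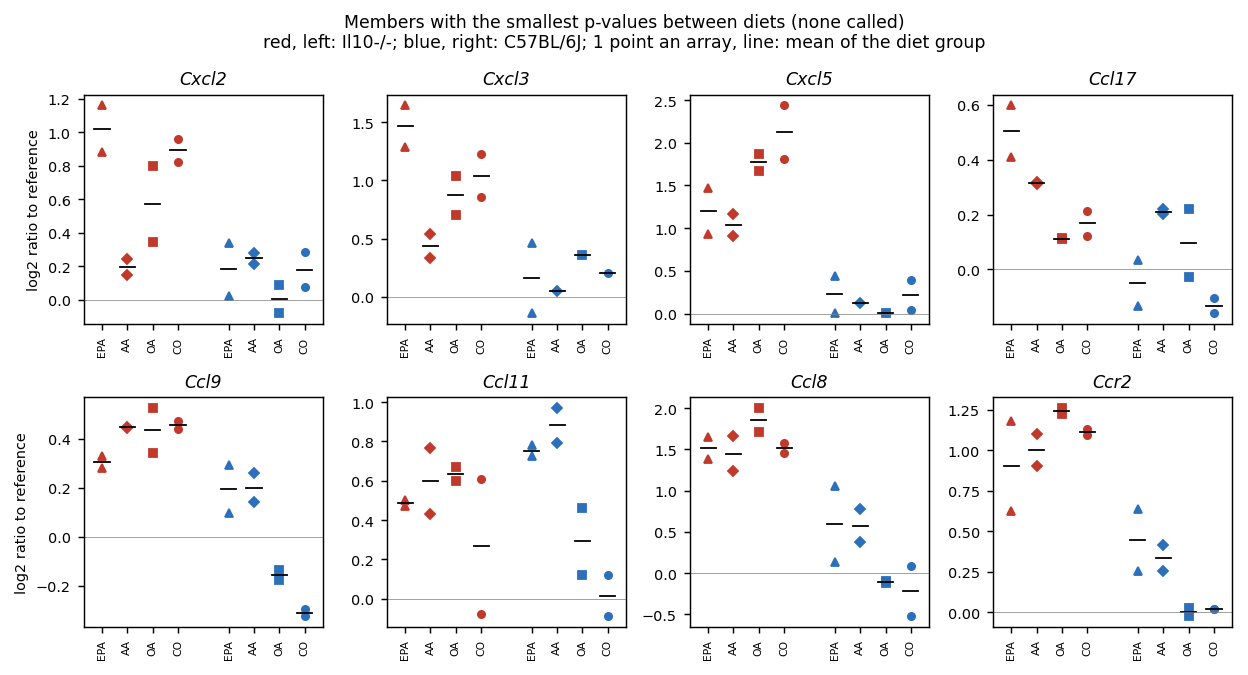
Level of 8 chemokine genes with small p-values in the diet comparisons on each array (log2 ratio to the reference on the y axis, 1 point an array, Il10-/- in red at left and C57BL/6J in blue at right, diets on the x axis, lines are means of 2 arrays or fewer). In Il10-/- mice Cxcl2 and Cxcl3 are lowest on AA and Cxcl5 is lower on EPA and AA than on OA and CO, and in C57BL/6J mice Ccl9, Ccl11, Ccl8 and Ccr2 are higher on EPA and AA; none of these passed an adjusted p of 0.05.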

How the data were processed

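Colon RNA pools were measured on 16 arrays with 2 channels, the sample in Cy3 and a common reference in Cy5, per the labels. The authors deposited 1 normalized log ratio per feature, read here as log2, and the submitters' processing notes name limma without a version. How the background was corrected, how arrays were normalized and why values are missing: not given in the sources used here. Neither the base of the logarithm nor the direction of the ratio is stated. Base 2 is assumed. The direction was taken as sample over reference, because the median of 15 genes of kidney, liver and fetus, all in the reference, lay below 0 on 16 of 16 arrays (-2.392 to -1.112). Gene symbols came from the platform annotation (32042 features with 1 symbol, 47 with several, which were not used), and 31906 were matched by gene ID to a current table. The number of arrays limits the precision.

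Features of a symbol were averaged, and the 25892 genes and unnamed features that had a value in each group were fitted with limma 3.58.1 in R 4.3.3 (8 group means, contrasts, eBayes, residual degrees of freedom 8, prior 4.07, Benjamini-Hochberg within each contrast). A missing value drops that array from the gene's fit. The script was tested on simulated data. The members, gene lists and role groups were chosen with earlier results of these data known. Named were members past the threshold over the diets and, in each diet comparison, the 3 members with the smallest p. Others named without passing, such as Ccl2, Ccr2, Ccr7 and Ccl25 in the C57BL/6J diet comparison, were chosen after their values were seen. Motifs were searched in RefSeq promoters with Python 3.11.15. The alternatives were other scalings, filters, weights and fits, leaving out each array, the pool number as a replicate block, and an added one without 2 arrays. Labels spread the mice over sampling days without tying them to arrays, so no such batch could be fitted.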

Additional observations from a re-analysis of the deposited data

Results flagged for a closer look

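Among the 102 sets of arrays of 1 gene and 1 genotype, 4 held 1 array that stood apart from the rest by more of the set's range than a 95% limit for outliers allows. Chance flags about 1 set in 20 at that limit. Ccl20 read 1.832 on C57BL/6J AA pool 1, and the next highest C57BL/6J array read 0.315. Ccl11 read -0.077 on Il10-/- CO pool 1, and the next lowest Il10-/- array read 0.431. Ccl1, a ligand of Ccr8, read 0.658 on Il10-/- OA pool 2, and the next highest Il10-/- array read 0.26. Ccr10, the receptor of Ccl27a and Ccl28, read -0.205 on C57BL/6J OA pool 1, and the next lowest of the 6 C57BL/6J arrays with a value read 0.008. The array that correlated least with the others of its genotype, C57BL/6J CO pool 2, stood apart in 0 of these sets.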

How the results depend on the processing

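Over 27 alternatives (16 leaving out 1 array, 11 others, of which the one without C57BL/6J AA pool 1 and EPA pool 1 was chosen after seeing the data), 23 of the 26 genes that rose over the diets kept their call wherever they could be fitted. Ccl17 (largest adjusted p 0.0673), Ccr1 (0.0594) and Cxcl11 (0.0734) lost it in 1, 6 and 7 alternatives, and Ccl6, Ccl20, Ccl25, Cxcl12 and Cxcl14 gained one in at least 1. The count over the diets lay between 23 and 27. On CO it was 8 with array weights and 5 with only the groups compared in the fit, on OA 24 with array weights, and on EPA 2 with only the groups compared. Without C57BL/6J AA pool 1 and EPA pool 1 it was 1 on EPA and 1 on AA. Leaving out 1 array gave 24 to 27 calls over the diets, 10 to 16 on CO, 12 to 17 on OA, 3 to 10 on EPA and 1 to 10 on AA. It gave 0 to 2 for OA against CO, for EPA and AA against OA and CO, and for any diet in C57BL/6J mice. It gave 0 to 1 for AA against OA in C57BL/6J mice, for the interaction and for the genotype difference of the EPA and AA effect, the calls appearing without C57BL/6J CO pool 1 or AA pool 2. A lone array left in a group is assumed to vary like the others. The main fit did not pair arrays by pool number. Correlations of pool differences between groups lay between -0.364 and 0.398, 12 of 28 above 0.1. Cxcl14 was higher on pool 1 than on pool 2 in each group. The pool number as a replicate block gave 27 calls over the diets, 15 on CO, 17 on OA, 12 on EPA and 8 on AA. The causes of these changes were not tested. The arrays give no brightness, so signal over background is unknown, and small differences of dim features have no bound.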
